A study of Mus musculus with 8 samples.

Results

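Kinesins are motor proteins that walk along microtubules or take their ends apart, and centromere proteins (CENPs) mark the centromere and build the kinetochore on it. The set described here is every gene on the array whose annotated symbol is Kif followed by a digit or Cenp followed by one letter. It holds 58 genes, 37 Kif and 21 Cenp, of 18194 genes measured. Each gene was read from 1 probe set, the brightest by mean over the 8 arrays among those that name that gene alone. The rule uses gene symbols and no expression difference, but it was chosen with earlier results of these data known.

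Total RNA came from cell suspensions of whole hematopoietic tissue of C57B6/J mice, either carrying intact Col18a1 (Col18a1+/+, wild-type) or lacking it (Col18a1-/-, knockout), and was hybridised to Affymetrix mouse expression arrays. Its product is the chain of collagen XVIII, a component of basement membranes. There were 4 groups of 2 arrays: knockout fetal liver, wild-type fetal liver, knockout bone marrow and wild-type bone marrow, and each array held RNA pooled from 2 littermates. Fetal livers were from embryonic day 14.5, with embryo sex undetermined in the labels, and bone marrow was flushed from femurs and tibias of 3-month-old males. Neither tissue was sorted, so every value is a level over a mixture of cells. Which part of the gene was deleted is not stated in those sources. Levels are log2 intensities, so a difference of 1 is a 2-fold difference, and they cannot be compared between probe sets of different genes.

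In mitosis, kinesins of the spindle separate the poles, move chromosomes and shorten microtubules, and other kinesins build the midzone where the cell divides. The centromeric histone Cenpa sits in the chromatin of the centromere, the inner kinetochore (the constitutive centromere-associated network) binds it, and the outer kinetochore holds the microtubules. Many of these genes are transcribed late in the cell cycle. Fetal liver at mid-gestation and adult bone marrow are both sites of rapid red cell production. Other kinesins are not tied to division and carry vesicles, mitochondria and ciliary cargo, above all in neurons and ciliated cells.

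Promoters of genes expressed at mitosis often hold the cell cycle homology region (CHR, written TTTGAA) close to the start of the gene, with CCAAT boxes further away, so stretches of 4 mitotic members with both motifs are shown. Each is the 100 bases before the RefSeq start in mouse assembly GRCm38.p6, written 5′ to 3′ along the gene. Kif11 and Cenpn were lower in fetal liver, Cenpw was higher there and Kif22 passed in neither direction. Capitals mark the CHR, here on the opposite strand as TTCAAA, and the CCAAT box on either strand (CCAAT or ATTGG).
Kif11, chr19:37376282-37376381, plus strand: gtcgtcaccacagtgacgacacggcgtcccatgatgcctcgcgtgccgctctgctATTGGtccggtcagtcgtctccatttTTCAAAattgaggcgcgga
Cenpn, chr8:116921640-116921739, plus strand: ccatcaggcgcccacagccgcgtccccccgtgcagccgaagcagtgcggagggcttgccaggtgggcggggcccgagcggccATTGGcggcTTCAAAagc
Cenpw, chr10:30200541-30200640, minus strand: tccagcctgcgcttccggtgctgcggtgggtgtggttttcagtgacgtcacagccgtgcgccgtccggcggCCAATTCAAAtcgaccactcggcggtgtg
Kif22, chr7:127042421-127042520, minus strand: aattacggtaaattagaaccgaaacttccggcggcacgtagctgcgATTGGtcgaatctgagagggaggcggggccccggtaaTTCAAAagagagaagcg
In the Cenpw stretch the 2 motifs share a base.

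Of the 58 members, 52 had a RefSeq promoter window of 300 bases, 250 before and 50 after the start. Kif13b, Kif20a, Kif21b, Kif28, Kif5a and Kif5b were not matched. On either strand, TTTGAA was found in 17 of the 52 windows (32.7%), against 20.2% of 27025 genes, and CCAAT in 28 (53.8%), against 41.1%. Both motifs were found in 13 windows (25%), against 7.97% of all genes. Among the mitotic kinesin, centromere and kinetochore members, 11 of 29 windows held both (37.9%), and among the other members 2 of 23 did (8.7%). These are matches of letters only. Both motifs were present in 5 of the 12 windows of members called lower in fetal liver in both genotypes. They were present in 1 of the 10 windows of those called higher. Called means an adjusted p under 0.05, as described for the tissue comparison. The 10 include Kif21a, Kif12 and Kif26a, which could enter the tests only by being higher in fetal liver. These 2 counts are therefore a description.

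Of the 58 members, 48 (27 Kif and 21 Cenp) reached 5 (log2) on at least 2 arrays and were tested among 13136 genes. The other 10 were Kif14, Kif15, Kif1a, Kif26b, Kif27, Kif28, Kif2b, Kif5c, Kif6 and Kif9, none of which exceeded 5.04 on any array. Kif21a, Kif12 and Kif26a reached 5 on fetal liver arrays alone, so they could pass the filter only by being higher there. Kif14 and Kif15, which act in cytokinesis and spindle pole separation, each have 1 probe set and never exceeded 4.26 and 4.78, so neither entered the tests. The 58 members have 138 probe sets on the array, and 35 genes have several. RefSeq also lists the pseudogenes Kif22-ps and Kif4-ps, whose signal could not be told apart from that of Kif22 and Kif4 here, and the probe sets used for Kif22 and Kif2c are of the _x_at type, whose probes can match more than one sequence.

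Both tissue labels were borne out by markers. Hepatocyte markers (6 of 8 measured) summed to 65009 to 67937 in fetal liver and 176 to 232 in bone marrow (linear intensity). Neutrophil markers (9 of 9) summed to 9151 to 13443 in fetal liver and 134737 to 138712 in bone marrow, and B cell markers (7 of 8) to 320 to 384 and 9343 to 10524. Erythroid markers (8 of 11) summed to 37717 to 43147 in fetal liver and 39062 to 40813 in bone marrow. No measured marker was at 0. Col18a1 stood at 8.17 and 8.06 in knockout and 9.06 and 9.18 in wild-type fetal liver, and at 5.63 and 5.99 in knockout and 7.84 and 7.85 in wild-type bone marrow. Xist, expressed from the inactive X chromosome, stood at 4.97 and 4.77 in knockout and 11.04 and 11.22 in wild-type fetal liver, against 4.61 to 5.03 in male bone marrow. Genotype and sex-linked expression thus cannot be told apart in fetal liver. Nor can tissue and sex-linked expression in the wild-type comparison of fetal liver with bone marrow. All 4 tested sex-linked genes were called in that comparison, and 0 in knockout tissue. Median intensities were 40.8 to 42.6 on the arrays, and arrays of a group correlated across genes at r = 0.992 to 0.997. The small number of arrays limits precision, and p-values measure the spread between these pools only.

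The first comparison set fetal liver against bone marrow within each genotype. In both genotypes 24 of the 48 tested members differed the same way: 10 were higher and 14 lower in fetal liver. Of the 10, Kif21a, Kif12 and Kif26a entered the tests only through their fetal liver levels. Those lower included the centromeric histone Cenpa, the spindle motor Kif11 and the midzone motor Kif23, while Kif2c, Cenpw, Cenpx and Cenpv were higher. A pair of related transport kinesins had opposite patterns, with Kif21a higher and Kif21b lower in fetal liver. In all, 30 members passed in knockout tissue, 11 higher and 19 lower, and 31 in wild-type tissue, 13 higher and 18 lower (adjusted p under 0.05, limma, adjusted over all genes tested). The same test called 63.8% of all genes in knockout tissue, 36.6% higher and 27.1% lower, and 65.9% in wild-type tissue, 39.2% higher and 26.8% lower. In both genotypes the same direction was called for 55.1% of all genes, 31.8% higher and 23.3% lower. The members' shares of 62.5% and 64.6% are thus near those of all genes. In wild-type tissue the 2 arrays of each tissue did not overlap for 21 members higher and 22 lower in fetal liver. Over all 13136 genes this held for 6692 higher and 4445 lower. In knockout tissue it held for 12 members higher and 26 lower, beside 6280 and 4538 of all genes. Arrays that do not overlap between the tissues were therefore common over all genes.

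The median difference of the members was -0.12 in knockout and 0.03 in wild-type tissue, beside 0.11 and 0.14 for all genes. The wild-type median of the members was -0.11 with the mean of all probe sets of a gene and -0.28 with its most variable probe set, so its sign depended on which probe sets stood for the genes. No member was called in opposite directions in the 2 genotypes. Since hepatocytes, neutrophils and B cells differed between the tissues, fewer cells of a type and less RNA per cell cannot be told apart, and the part of cell content in any tissue difference was not tested.

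**Figure D1:**
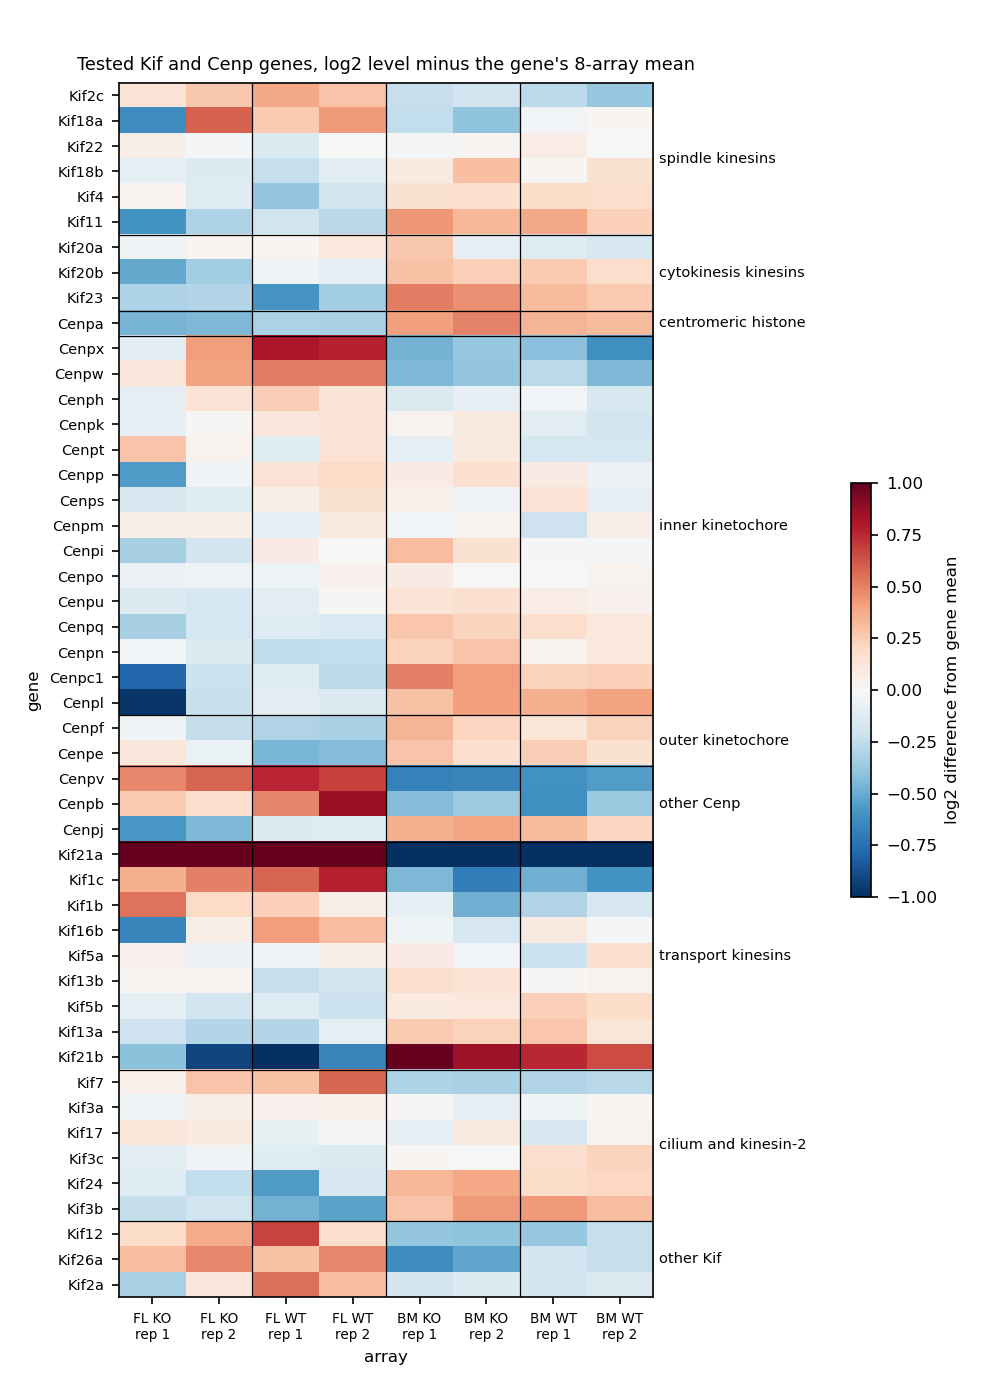
Each row is a tested Kif or Cenp gene, ordered by role, and each column an array, the fetal liver (FL) knockout (KO) and wild-type (WT) arrays left of the bone marrow (BM) ones. Colour gives the log2 level minus the gene's own mean over the 8 arrays, with the scale ending at -1 and 1, which Kif21a and Kif21b pass. Kif11, Kif23, Cenpa and the lower rows of the inner kinetochore are bluer in fetal liver, Cenpw, Cenpv and Kif21a redder, and the first knockout fetal liver array stands apart for Kif18a, Cenpc1 and Cenpl.

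Among 6 tested kinesins of the spindle and chromosomes, 1 was higher and 2 were lower in fetal liver in knockout tissue, and again 1 and 2 in wild-type tissue. Kif11 makes the motor that slides spindle poles apart. It stood at 9.57 and 9.85 in knockout fetal liver against 10.59 and 10.49 in knockout bone marrow, and at 9.96 and 9.88 in wild-type fetal liver against 10.54 and 10.40 in wild-type bone marrow. On this brightest probe set every fetal liver array was below every bone marrow array. The differences were -0.83 ± 0.12 in knockout and -0.55 ± 0.12 in wild-type tissue (SE of the fit, n = 2 arrays per group, adjusted p = 0.000255 and 0.00282, limma). The next brightest Kif11 probe set was also lower, by -0.79 and -0.82. The dimmest one overlapped between the tissues, with differences of 0.01 in knockout and -0.20 in wild-type tissue (adjusted p = 0.974 and 0.448, limma).

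Kif2c, which takes microtubule ends apart at centromeres, went the other way on its brightest probe set. It stood at 10.12 and 10.25 in knockout fetal liver against 9.75 and 9.78 in knockout bone marrow, and at 10.36 and 10.27 in wild-type fetal liver against 9.72 and 9.60 in wild-type bone marrow. The differences of Kif2c were 0.41 ± 0.10 in knockout and 0.65 ± 0.10 in wild-type tissue (adjusted p = 0.00463 and 0.000308, limma). This direction rests on the choice of probe set. In wild-type tissue the dimmest of the 4 Kif2c probe sets differed by -0.68, and passed too. The mean of all of them differed by -0.0023.

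Kif22, a chromokinesin that pushes chromosome arms outwards, stood between 11.04 and 11.26 on all 8 arrays and passed in neither genotype, with differences of 0.02 in knockout and -0.11 in wild-type tissue. Kif4, the chromokinesin on chromosome X, passed in wild-type tissue, where it was lower in fetal liver by test (-0.47, adjusted p = 0.00314, limma). It differed by -0.21 in knockout tissue (adjusted p = 0.1, limma). The part of sex-linked expression in the wild-type difference of Kif4 was not tested. Kif18b, which acts on astral microtubules, was lower in fetal liver in knockout tissue (-0.31, adjusted p = 0.0307, limma) and at -0.25 in wild-type tissue (adjusted p = 0.0638, limma). Its relative Kif18a, which limits chromosome movement at the spindle equator, passed in neither.

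Of the 3 tested kinesins of cytokinesis, 2 were lower in fetal liver in both genotypes. Kif23, the motor of the centralspindlin complex at the midzone, stood at 9.55 and 9.56 in knockout fetal liver against 10.37 and 10.32 in knockout bone marrow, and at 9.27 and 9.51 in wild-type fetal liver against 10.17 and 10.12 in wild-type bone marrow. Its fetal liver arrays all lay below its bone marrow arrays, by -0.79 ± 0.10 in knockout and -0.76 ± 0.10 in wild-type tissue (adjusted p = 0.000165 and 0.00019, limma). The other 2 probe sets of Kif23 differed by -1.31 and -2.14 in wild-type tissue. Kif20b, a motor of late cytokinesis, was lower by -0.70 ± 0.09 in knockout and -0.28 ± 0.09 in wild-type tissue (adjusted p = 0.000214 and 0.0287, limma). Its next brightest probe set differed by -0.14 in knockout and -0.61 in wild-type tissue (adjusted p = 0.572 and 0.0188, limma). Kif20a, which brings the chromosomal passenger complex to the midzone, differed by -0.11 and 0.22 without passing.

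Cenpa, the histone that replaces its canonical counterpart at centromeres, was lower in fetal liver. It stood at 10.72 and 10.73 in knockout fetal liver against 11.59 and 11.68 in knockout bone marrow, and at 10.86 and 10.86 in wild-type fetal liver against 11.53 and 11.50 in wild-type bone marrow. The groups did not overlap, and the gap was many times the distance between replicates. Its differences were -0.91 ± 0.08 in knockout and -0.65 ± 0.08 in wild-type tissue (adjusted p = 1.94e-05 and 0.000151, limma).

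The 15 tested genes of the inner kinetochore did not move as 1 block. In knockout tissue 2 were higher and 7 lower in fetal liver, with a median of -0.15. In wild-type tissue 4 were higher and 3 lower, with a median of 0.08. Over all genes 36.6% were higher and 27.1% lower in knockout tissue, and 39.2% and 26.8% in wild-type tissue. Of the 4, Cenph only just passed (0.28, adjusted p = 0.0453, limma). The dimmer probe sets of Cenpk, another of the 4, were lower, by -1.33 and -2.08. Cenpw and Cenpx, small histone-fold subunits that bind DNA, were higher in both genotypes, and Cenpn, which reads the Cenpa nucleosome, Cenpq and Cenpc1 were lower in both.

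Cenpw stood at 9.67 and 9.96 in knockout fetal liver against 9.11 and 9.17 in knockout bone marrow, and at 10.07 and 10.07 in wild-type fetal liver against 9.29 and 9.10 in wild-type bone marrow. Its differences were 0.68 ± 0.12 and 0.88 ± 0.12 (adjusted p = 0.000949 in knockout and 0.00018 in wild-type tissue, limma). Its dimmer probe set was also higher in wild-type fetal liver, by 1.76. Cenpx stood at 8.68 and 9.22 in knockout fetal liver against 8.32 and 8.42 in knockout bone marrow, and at 9.61 and 9.57 in wild-type fetal liver against 8.38 and 8.18 in wild-type bone marrow. The first knockout fetal liver array of Cenpx thus lay nearer to bone marrow than any other fetal liver array did, and the knockout difference of 0.58 ± 0.16 missed the threshold without the second one (0.31, adjusted p = 0.0537, limma) and without the first knockout bone marrow array (0.53, adjusted p = 0.0719, limma). The wild-type difference was 1.30 ± 0.16 (adjusted p = 0.000116, limma).

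Cenpn, whose promoter is printed above with that of Cenpw, had levels of 9.67 and 9.56 in knockout fetal liver against 9.93 and 9.98 in knockout bone marrow, and of 9.44 and 9.45 in wild-type fetal liver against 9.73 and 9.80 in wild-type bone marrow. It was lower by -0.34 ± 0.09 and -0.32 ± 0.09 (adjusted p = 0.0088 in knockout and 0.0111 in wild-type tissue, limma). Cenpc1, the scaffold that joins Cenpa chromatin to the outer kinetochore, was lower by -0.96 ± 0.17 in knockout tissue (adjusted p = 0.000937, limma). In wild-type tissue it only just passed (-0.43 ± 0.17, adjusted p = 0.048, limma), and that call was lost in 11 of 20 other settings, including without any 1 of the bone marrow or wild-type fetal liver arrays. Cenpi, Cenpl, Cenpp and Cenpu passed in knockout tissue and not in wild-type tissue, and Cenph and Cenpk the other way round. For none of these 6 did the test of the difference between genotypes pass, so they are not shown to differ in this. Cenpm, Cenpo, Cenps and Cenpt passed in neither genotype. Itgb3bp, which encodes CENP-R of the same network under another symbol, was higher in fetal liver by 0.77 in knockout and 1.19 in wild-type tissue.

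On their brightest probe sets both outer kinetochore members were lower in wild-type fetal liver and 1 of them in knockout fetal liver. Cenpf, a large coiled-coil protein that gathers at kinetochores before mitosis, stood at 10.65 and 10.46 in knockout fetal liver against 11.03 and 10.91 in knockout bone marrow, and at 10.39 and 10.37 in wild-type fetal liver against 10.82 and 10.92 in wild-type bone marrow. Its differences were -0.41 in knockout and -0.49 in wild-type tissue (adjusted p = 0.00652 and 0.00255, limma). Cenpe, itself a kinesin that carries chromosomes to the spindle equator, was lower in wild-type fetal liver (-0.65 ± 0.10, adjusted p = 0.000445, limma). It differed by -0.20 in knockout tissue (adjusted p = 0.111, limma). The wild-type call rests on the choice of probe set. A second Cenpe probe set, nearly as bright, differed by -0.11 in wild-type and 0.12 in knockout tissue (adjusted p = 0.569 and 0.543, limma). The test of the difference between genotypes did not pass for Cenpe (adjusted p = 0.231, limma).

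The remaining 3 Cenp genes do not encode kinetochore subunits of the 2 layers above. Cenpv, named for a role at centromeres and midzone, stood at 9.44 and 9.54 in knockout fetal liver against 8.28 and 8.28 in knockout bone marrow, and at 9.71 and 9.64 in wild-type fetal liver against 8.35 and 8.40 in wild-type bone marrow. It had the smallest adjusted p of any member in both genotypes, with differences of 1.21 ± 0.09 and 1.30 ± 0.09 (adjusted p = 4.14e-06 in knockout and 2.41e-06 in wild-type tissue, limma). Cenpb, which binds a DNA box in centromeric repeats, was higher by 0.61 ± 0.14 in knockout and 1.16 ± 0.14 in wild-type tissue, the knockout call being lost with the mean of its probe sets (0.21, adjusted p = 0.0896, limma). Cenpj, which builds centrioles rather than centromeres, was lower by -0.89 ± 0.09 and -0.39 ± 0.09 (adjusted p = 3.51e-05 in knockout and 0.00447 in wild-type tissue, limma).

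**Figure D2:**
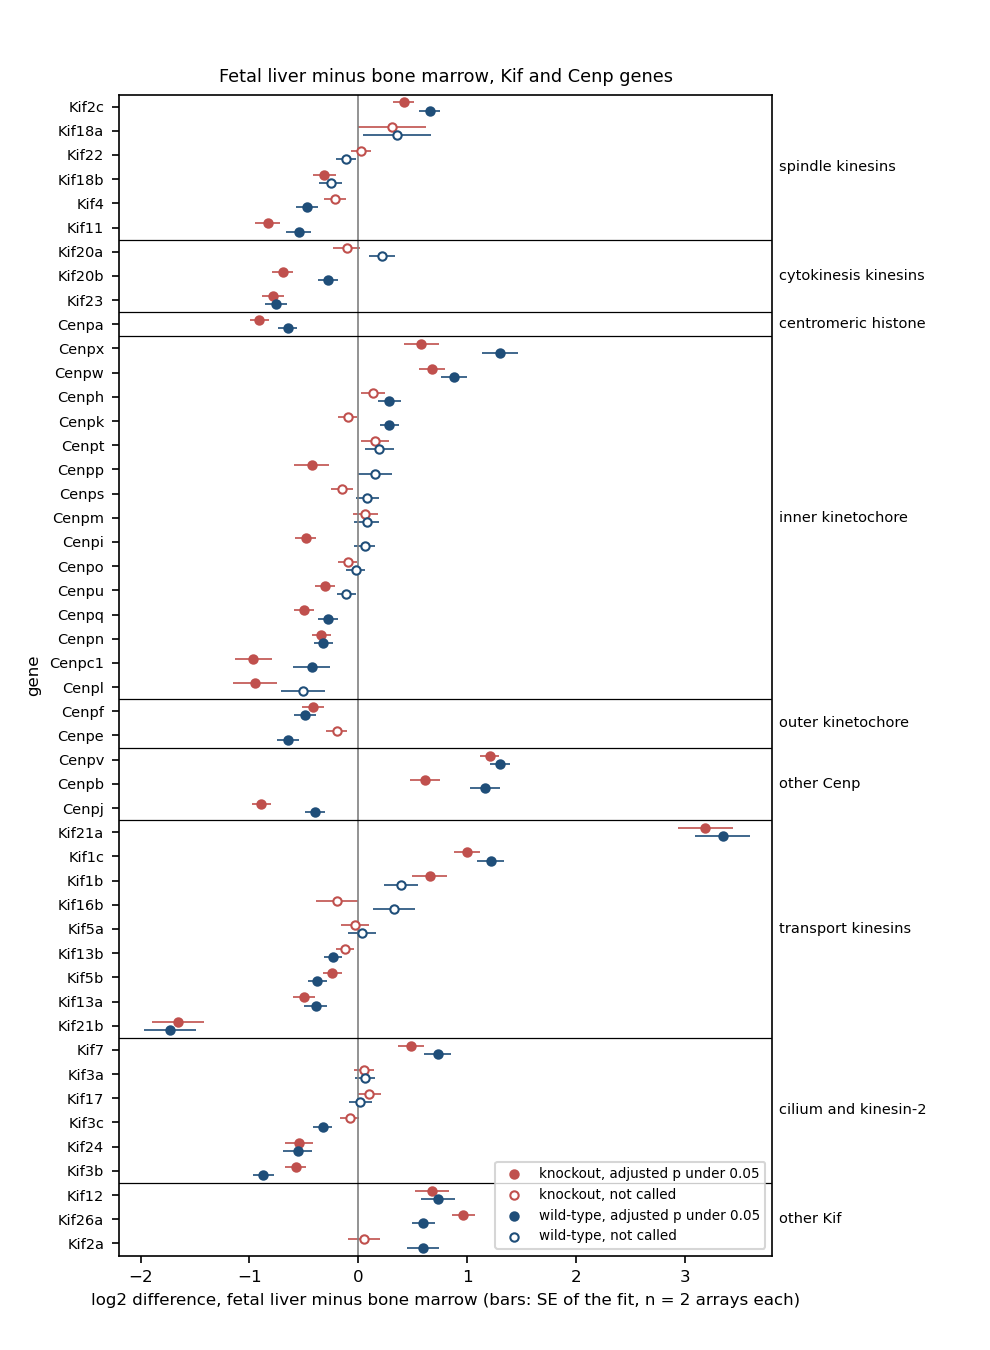
Points give the log2 difference, fetal liver minus bone marrow, for each tested member in knockout (red) and wild-type (blue) tissue, with bars for the SE of the fit and 2 arrays per group. Filled points passed at an adjusted p under 0.05. Kif21a lies beyond 3 in both genotypes and Kif21b below -1.6, while most mitotic members lie between -1 and 1. The points of Kif21a, Kif12 and Kif26a are descriptions, since these genes could enter the tests only by being higher in fetal liver.

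Outside mitosis, 9 tested transport kinesins gave 3 higher and 3 lower in knockout and 2 higher and 4 lower in wild-type tissue. Kif21a, a motor that restrains microtubule growth and is best known from neurons, was at 7.24 and 7.44 in knockout fetal liver against 3.81 and 4.50 in knockout bone marrow. In wild-type tissue it was at 7.40 and 7.36 in fetal liver against 4.37 and 3.69 in bone marrow. Its bone marrow levels lay below the filter of 5 on all 4 arrays, while its fetal liver levels ran between 7.24 and 7.44. The measured means of Kif21a differed by 3.18 in knockout and 3.34 in wild-type tissue, and a second Kif21a probe set differed by 3.16 in wild-type tissue. These are descriptions, since the gene could enter the tests only by being high in fetal liver and the size rests on dim bone marrow values. The 8 neuron markers summed to 160 to 222 in fetal liver and 114 to 133 in bone marrow, low in both, and their part in this result was not tested.

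Kif21b, the relative of Kif21a, was at 6.82 and 6.31 in knockout fetal liver against 8.36 and 8.08 in knockout bone marrow, and at 5.86 and 6.57 in wild-type fetal liver against 7.99 and 7.89 in wild-type bone marrow. All fetal liver arrays lay more than 1 below all bone marrow arrays. The differences were -1.65 ± 0.24 and -1.73 ± 0.24 (adjusted p = 0.000308 in knockout and 0.000215 in wild-type tissue, limma). B cell and neutrophil markers were also lower in fetal liver, as given above, and their part in this difference was not tested.

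Kif1c, a motor of vesicle transport, stood at 7.39 and 7.54 in knockout fetal liver against 6.59 and 6.35 in knockout bone marrow, and at 7.62 and 7.81 in wild-type fetal liver against 6.56 and 6.44 in wild-type bone marrow. It was higher by 0.999 ± 0.12 and 1.21 ± 0.12 (adjusted p = 9.62e-05 in knockout and 2.61e-05 in wild-type tissue, limma). The ubiquitous conventional kinesin Kif5b, whose relatives Kif5a and Kif5c are neuronal, was lower by -0.24 in knockout and -0.38 in wild-type tissue, and the endosomal motor Kif13a by -0.50 and -0.39. Of 8 tested kinesin light chains and adaptors outside the set, 1 was higher and 3 lower in knockout and 3 higher and 2 lower in wild-type tissue, Trak1, a mitochondrial adaptor of Kif5 motors, being lower by -1.42 and -1.24. Of 8 tested subunits of cytoplasmic dynein, the motor that runs the opposite way, 3 were higher and 2 lower in knockout and 2 higher and 2 lower in wild-type tissue.

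**Figure D3:**
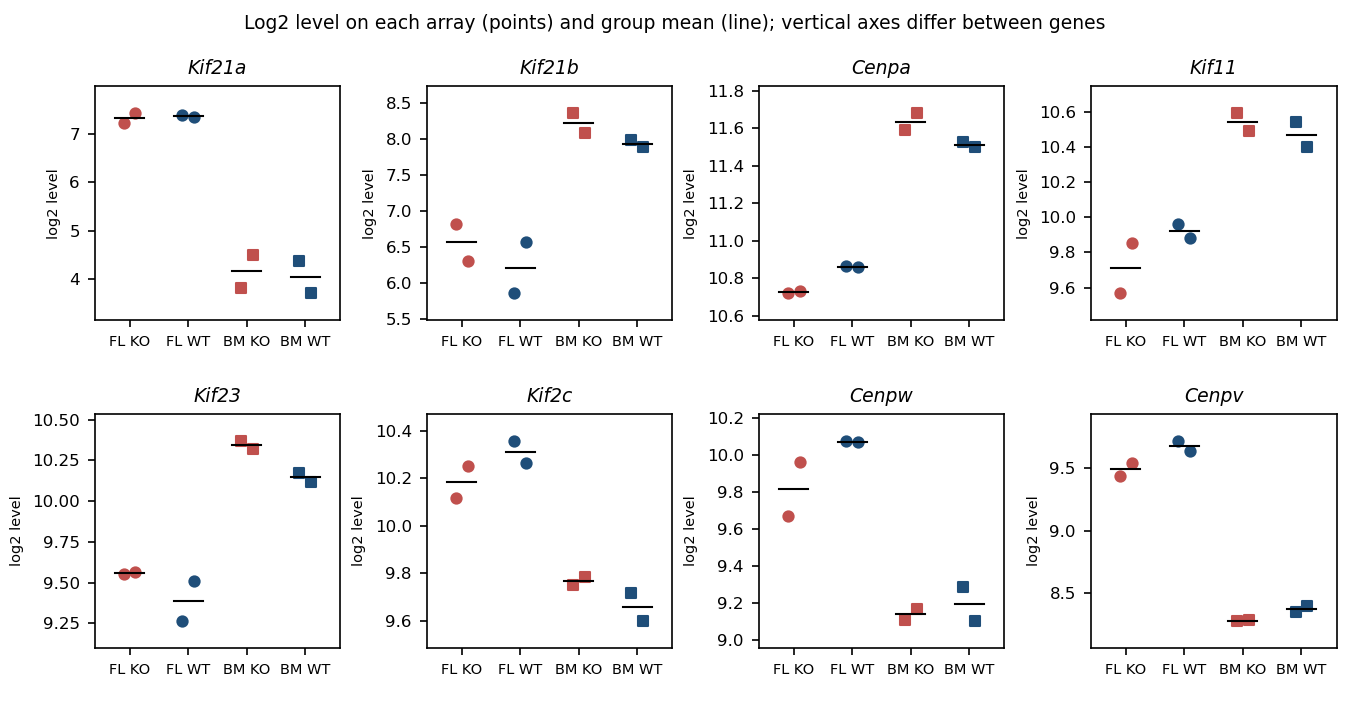
Log2 level of 8 members on each array (points) with the group mean (line), fetal liver circles left of bone marrow squares, knockout red and wild-type blue. Vertical axes differ between genes. In every panel the 4 fetal liver points lie wholly above or wholly below the 4 bone marrow points. Separation of the tissues within a genotype was common over all genes too, as counted in the text.

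Of 6 tested members of the ciliary and kinesin-2 list, 1 was higher and 2 were lower in knockout and 1 higher and 3 lower in wild-type tissue. Kif3b, a subunit of the motor that builds cilia, was at 6.42 and 6.46 in knockout fetal liver against 6.95 and 7.09 in knockout bone marrow, and at 6.19 and 6.12 in wild-type fetal liver against 7.09 and 6.97 in wild-type bone marrow. It was lower by -0.58 ± 0.10 and -0.87 ± 0.10. On its brightest probe set the partner subunit Kif3a differed by 0.05 and 0.06 without passing. The other 3 Kif3a probe sets were higher in wild-type fetal liver by 0.59, 0.64 and 0.43, and all passed. In knockout tissue they differed by 0.44, 0.34 and 0.06, and only the first passed. Kif7, the ciliary regulator of Hedgehog signalling, was higher by 0.48 in knockout and 0.73 in wild-type tissue, and Kif24, which restrains cilium assembly, was lower by -0.54 in knockout and -0.56 in wild-type tissue. Both Kif24 calls were lost with the mean of its probe sets (-0.13 and -0.26, adjusted p = 0.327 and 0.068, limma). The 6 markers of ciliated epithelium summed to 126 to 160 in fetal liver and 157 to 179 in bone marrow. Of the remaining Kif symbols, Kif12 stood at 5.18 to 5.67 in fetal liver and 4.60 to 4.77 in bone marrow, and Kif26a at 4.96 to 5.15 and 4.05 to 4.48. Both entered the tests through fetal liver alone, so these levels are given as a description. Kif2a was higher in wild-type fetal liver (0.59, adjusted p = 0.00645, limma) and differed by 0.05 in knockout tissue, and the test of the difference between genotypes did not pass (adjusted p = 0.277, limma). Another Kif2a probe set, at a lower mean, differed by -0.95 in wild-type tissue and passed too.

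The mitotic genes outside the set went both ways, with more lower than higher in fetal liver. Of 34 tested genes in 6 lists of histone loading, kinetochore, passenger complex, checkpoint and spindle partners and CENP-R, 5 were higher and 12 lower in knockout fetal liver (50% called). In wild-type fetal liver 5 were higher and 13 lower (52.9% called). Over all genes 36.6% were higher and 27.1% lower in knockout tissue, and 39.2% higher and 26.8% lower in wild-type tissue. Nusap1, which bundles spindle microtubules, was lower by -0.83 in knockout and -0.69 in wild-type tissue, and Plk1, the mitotic kinase, was higher by 0.48 in each. Of 11 tested proliferation markers, 3 were higher in both genotypes, with 6 lower in knockout and 5 lower in wild-type tissue. Ccnb2, a mitotic cyclin, was lower by -0.91 in knockout and -0.85 in wild-type tissue, Top2a by -0.47 and -0.59 and Mki67 by -0.25 and -0.50. The replication helicase gene Mcm2 was higher by 0.97 and 0.80, and E2f1, a factor of entry into replication, by 0.80 and 0.79.

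Where a gene has several probe sets, they did not always give 1 answer. With every single-gene probe set tested and no filter, 56 of 138 member probe sets passed in knockout tissue and 56 in wild-type tissue, 20 higher and 36 lower in each (40.6%, 14.5% higher and 26.1% lower). Over all probe sets 39.7% passed in knockout tissue, 19.7% higher and 20% lower, and 42.4% in wild-type tissue, 21.5% higher and 20.9% lower. Of the 24 genes with several probe sets at a mean of at least 5, in wild-type tissue 17 had passing probe sets in 1 direction, 5 had none and 2 (Kif2a and Kif2c) had them in both. In knockout tissue these counts were 19, 5 and 0. Cenpk is a further case, since its brightest probe set was higher in wild-type fetal liver by 0.28 while its dimmer ones differed by -1.33 and -2.08.

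The second comparison was the one the design is built on, knockout against wild-type within each tissue. No Kif or Cenp gene passed in fetal liver, in bone marrow, in the interaction between them or in the average of both (0 of 48 in each, adjusted p under 0.05, limma). Over all genes that test called 0.320% in fetal liver, 0.411% in bone marrow, 0.0914% in the interaction and 0.198% in the average. At an unadjusted p under 0.05, 14 members passed in fetal liver, 4 higher and 10 lower in knockout, or 29.2% beside 22.0% of all genes (7.89% higher and 14.1% lower). At that level 3 members passed in bone marrow, beside 6.74% of all genes, 10 in the interaction, beside 15.7%, and 9 in the average, beside 14.1%. The 95% intervals of the differences had median half-widths of 0.24 (log2) in each tissue and 0.34 in the interaction. In bone marrow the interval lay within 2-fold either way for 47 of 48 members, all but Kif18a. In fetal liver it did for 45, all but Cenpx, Kif16b and Kif18a. In the interaction it did for 40, all but Cenpb, Cenpc1, Cenpl, Cenpp, Cenpx, Kif16b, Kif18a and Kif2a.

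In fetal liver 30 members had negative and 18 positive differences, so 62.5% were lower in knockout, beside 55.2% of all genes, and the median was -0.09, beside -0.03. With the most variable probe set of each gene that median was 0.01, so its sign too depended on the probe set. On the brightest probe sets negative values were more frequent among the Cenp genes (16 of 21) than among the Kif genes (14 of 27). This count was not tested. Other probe sets of Cenp genes went both ways, such as 0.67 for Cenpf and 0.73 for Cenpk, against -0.49 for Cenpp and -0.33 for Cenpw. The smallest adjusted p belonged to Cenpe, the kinetochore motor. It stood at 10.04 and 9.85 in knockout and 9.46 and 9.48 in wild-type fetal liver, with no overlap, a difference of 0.47 ± 0.10 (adjusted p = 0.0902, limma). Its bone marrow levels of 10.21 and 10.08 in knockout and 10.16 and 10.07 in wild-type differed by 0.03.

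Cenpj, the centriole gene, stood at 6.94 and 7.07 in knockout and 7.39 and 7.40 in wild-type fetal liver (-0.39 ± 0.09, adjusted p = 0.0996, limma). Kif20b stood at 8.66 and 8.82 in knockout and 9.13 and 9.09 in wild-type fetal liver (-0.37 ± 0.09, adjusted p = 0.104, limma). The next brightest Kif20b probe set went the other way, by 0.23 (adjusted p = 0.561, limma). Cenpx stood at 8.68 and 9.22 in knockout and 9.61 and 9.57 in wild-type fetal liver (-0.64 ± 0.16, adjusted p = 0.105, limma). In each of these 3 genes both knockout arrays lay below both wild-type arrays, an arrangement seen for 22 members and for 30.2% of all genes, the reverse being seen for 9 members and 19.9% of all genes. Kif2a differed by -0.54, Kif16b, an endosomal motor, by -0.66 and Cenpb by -0.46 (adjusted p = 0.113, 0.123 and 0.127, limma). The dimmer probe sets of Kif2a went both ways, by -0.27, 0.23, 0.08 and 0.25. On the positive side Kif3b differed by 0.29, Kif13b by 0.24 and Kif4 by 0.24 (adjusted p = 0.147, 0.157 and 0.214, limma).

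These values lean on how the 2 knockout fetal liver arrays are weighed, because they stood apart for several members. They were more than 0.5 apart for 7 of 48 members (14.6%), beside 5.36% of all genes, and each other group had 1 such member (2.08%). Kif18a stood at 8.21 on the first and 9.43 on the second, Cenpl at 8.17 and 8.92, Kif16b at 6.09 and 6.79, and Cenpc1 at 8.79 and 9.36. In these 4 genes the first array was the lower. Without the second knockout fetal liver array, 10 members passed in fetal liver: Cenpe was higher and Cenpc1, Cenpj, Cenpl, Cenpp, Cenpx, Kif16b, Kif18a, Kif20b and Kif2a were lower (adjusted p = 0.0163 to 0.0414, limma, with the lone array assumed to vary like the other groups). That setting called 7.69% of all genes. Without the first knockout array none passed.

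In bone marrow the knockout and wild-type levels lay closer together. The differences ran between -0.36 and 0.28, with a median of 0.06 beside 0.01 for all genes, and 18 of 48 were negative, beside 45.6% of all genes. The smallest adjusted p was 0.454 (limma), for Kif26a, at 4.05 and 4.15 in knockout and 4.48 and 4.44 in wild-type bone marrow, all under the filter level. Cenpi stood at 9.25 and 9.09 in knockout and 8.92 and 8.93 in wild-type bone marrow (0.24), and Cenpk at 10.81 and 10.87 in knockout and 10.66 and 10.58 in wild-type (0.22). Megakaryocyte markers, all 8 measured, summed to 7580 to 7967 in knockout and 15171 to 18135 in wild-type bone marrow, and their part in these small differences was not tested.

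The interaction asks whether the genotype difference in fetal liver departs from that in bone marrow. Of the 48 members 35 had negative values (72.9%), beside 56.1% of all genes, with a median of -0.10, beside -0.04. All 15 inner kinetochore genes were negative on their brightest probe sets, with a median of -0.22. Of their 12 other probe sets 7 were negative and 5 positive, the dimmer ones of Cenpk giving 0.13 and 0.70. No member passed, and at an unadjusted p under 0.05 there were 2 positive and 8 negative members. With 1 array left out in turn, 12 to 15 of the inner kinetochore values stayed negative, at medians of -0.30 to -0.17. Cenpi and Cenpj had the smallest adjusted p, with -0.54 ± 0.14 and -0.50 ± 0.13 (adjusted p = 0.175 for each, limma). Cenpi lies on chromosome X, and the fetal liver side of the interaction is also the contrast in sex-linked expression.

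**Figure D4:**
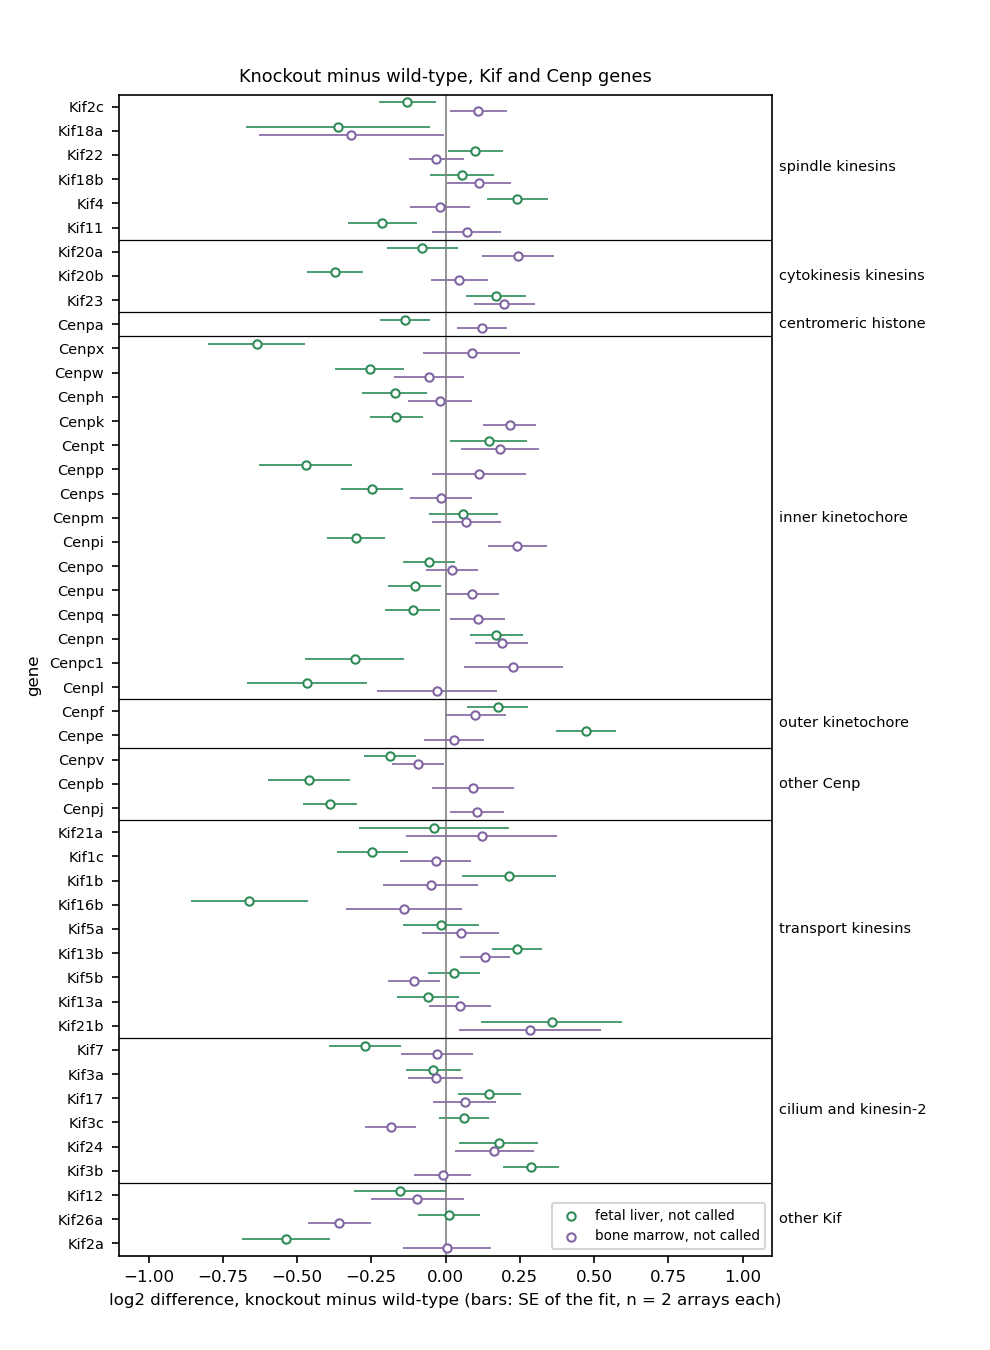
Points give the log2 difference, knockout minus wild-type, for each tested member in fetal liver (green) and bone marrow (purple), with bars for the SE of the fit and 2 arrays per group. All points are open because none passed at an adjusted p under 0.05; the fetal liver points of the inner kinetochore lie mostly left of 0 and those of bone marrow mostly right of it.

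Among the 8 light chain and adaptor genes outside the set, Mapk8ip1, an adaptor between kinesin cargo and the JNK kinases, was the 1 gene of the related lists called between genotypes. It reached 5 on the wild-type fetal liver arrays alone and so could enter the tests only through the group where it was high. It stood at 4.34 and 4.27 in knockout and 5.11 and 5.22 in wild-type fetal liver, which differed by -0.86 and is given as a description. The knockout levels of Mapk8ip1 lay near those of bone marrow, which ran between 4.15 and 4.31.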

How the data were processed

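The authors' deposited table holds 1 linear intensity per probe set and array for 45101 probe sets. The intensities were made with RMA, per the submitters' processing notes (version not given in the sources used here). RMA makes array distributions alike, so a shift of most genes would be removed, and dim probe sets show smaller differences than they should. The deposited intensities were converted to log2 here, without detection calls.

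The platform annotation gives 1 gene for 34958 probe sets, several for 932 and none here for 9211. The brightest probe set stood for its gene, and a gene was tested if 2 or more arrays reached 5 (log2), which held for 13136 of 18194. In R 4.3.3, limma 3.58.1 fitted 1 mean per group to all 8 arrays, with default moderation (4 residual and 4.48 prior degrees of freedom), two-sided tests and Benjamini-Hochberg adjustment over all genes tested, at 0.05. The fit was also run on data simulated from its own model, with 200 genes changed per round. Such data cannot show whether the model suits these arrays. Any member could be named, by its role, with the largest tissue differences and the smallest genotype p-values given in full. The members, lists and rules were chosen with earlier results of these data known. Promoter windows are from RefSeq (GRCm38.p6).

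Alternatives covered scaling, filter, probe set choice, variance model, array weights, replicate number as a block, threshold and each array left out. Deviations of same-numbered arrays correlated at -0.125 to -0.000777, so numbers were not used as pairs.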

Additional observations from a re-analysis of the deposited data

How the results depend on the processing

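Each count of called members or member probe sets was compared with its value in up to 20 other settings. Of these comparisons 202 stayed within 1.5 times the reported count and 10 left that range, all listed here. In fetal liver the genotype count was 4 members (1 higher, 3 lower) with intensity trend and robust moderation, 2 at an adjusted p under 0.1, and 0 to 10 with 1 array left out. Without the filter, 3 probe sets passed there with trend and robust moderation and 0 to 1 with 1 array left out. The average over tissues called 0 to 3 members with 1 array left out, and the bone marrow and interaction counts 0. The tissue counts ran between 23 and 35 in wild-type and 24 and 30 in knockout tissue with 1 array left out, and for probe sets between 37 and 64 and between 35 and 55. At an adjusted p under 0.01, 37 probe sets passed in knockout tissue. Kif2c reversed in wild-type tissue, to -0.0023 with the mean of its probe sets and to -0.68 with the most variable one. The call of Cenpc1 in wild-type tissue was lost in 11 settings (adjusted p = 0.0504 to 0.187, limma). With the mean of all probe sets of a gene, Kif24 lost both tissue calls and Cenpb that in knockout tissue. The member median of the fetal liver genotype difference was 0.01 with the most variable probe set, against -0.09. The signs over all inner kinetochore probe sets were counted after seeing the data. The causes of these shifts were not tested. With the replicate number as a block, 30 members passed in wild-type tissue, 29 in knockout tissue and 0 in each genotype contrast, and the block removed the wild-type call of Cenpc1 (adjusted p = 0.059, limma). Scaling moved the median of all genes by less than 0.1. With 2 arrays per group and the compression of dim probe sets, small differences of low members such as Kif12, Kif26a and Kif5a cannot be resolved.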
